A study of Saccharomyces cerevisiae with 4 samples.

Results

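The 34 genes described here encode the enzymes that take glucose to pyruvate in the yeast *S. cerevisiae* and on to ethanol, acetate, acetyl-CoA and glycerol. They were chosen by identifier and not by their values, though earlier results of these data were known. They run from the hexokinases to the pyruvate kinases, with the pyruvate decarboxylases, alcohol and aldehyde dehydrogenases, acetyl-CoA synthetases and glycerol enzymes. All 34 were among the 6418 genes listed, and each passed the filter of 10 counts or more, averaged over the libraries, that 6010 genes met. Transcript abundance was given in TPM, in which a read count is divided by gene length and scaled to nearly the same total in each library, so that levels of different genes can be compared.

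RNA was sequenced from 4 strains, each as a single library. The strain byMM1827 held denAsCas12a:ScRNA-5′ directed to lexOpR, an operator upstream of the yEGFP reporter, and to the promoter of HED1. Its control byMM1777 held denAsCas12a without ScRNA. In byMM1832, dCas12e:ScRNA-L1 was directed to lexOpR and to the promoter of GAL7, and its control byMM1736 held dCas12e without ScRNA. A scaffold RNA (ScRNA) is a guide RNA with added hairpins that recruit the coat protein MCP fused to the activation domain VP64. All 4 strains were built on CEN.PK2-1C, a MATa laboratory strain, and carried the Cas protein, MCP-VP64 and the yEGFP reporter on integrated plasmids. The strains with ScRNAs had in addition a plasmid with the HIS3 marker and were picked for fluorescence among transformants, so that ScRNA, marker and the choice of a transformant cannot be told apart. The MCP-VP64 unit used the promoter and terminator of ADH1, and the Cas unit used the GPD promoter, which is that of TDH3. Both genes are among the 34, and whether transcripts of these units were counted on them was not tested.

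Glycolysis splits glucose into pyruvate and yields ATP and NADH. Yeast growing on glucose turns most pyruvate into acetaldehyde and then ethanol, which restores NAD+, while a side branch makes glycerol and another makes acetate and acetyl-CoA. Many steps have isozymes, one for growth on glucose and another that is made when glucose runs low, under stress, or on ethanol and acetate. The factors Gcr1 and Rap1 drive the abundant glycolytic genes, and Msn2 and Msn4 act at the stress response element AGGGG.

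The libraries held from 37275559 (byMM1777) to 54013763 (byMM1827) counts, with medians of 1914 to 2487.5 per gene. The 34 genes had at least 1740 counts each, the lowest being ACS1 in byMM1832, so that the 95% Clopper-Pearson intervals given with the ratios are narrow. These intervals cover counting error only. They say nothing of the spread between cultures, which 1 library per strain cannot show, and a ratio within a pair compares 2 libraries, not 2 conditions. Of the targeted genes, HED1 had 30.3 TPM in byMM1827, against 15.8 in byMM1777, and GAL7 had 3.53 TPM in byMM1832, against 2.05 in byMM1736. The marker HIS3 had 5309 TPM in byMM1827 and 2770 in byMM1832, against 207 in byMM1777 and 255 in byMM1736. The a-cell gene STE2, the receptor for alpha factor, had from 167 to 196 TPM, whereas STE3, its counterpart of alpha cells, had from 18.1 to 23.2 TPM. Of the other a-cell genes, MFA1 had from 528 to 869 TPM and MFA2 from 625 to 1670. STE6, also an a-cell gene, had from 12.0 to 18.1 TPM and was below STE3 in each library. The alpha-cell genes MF(ALPHA)1 and MF(ALPHA)2 had from 5.55 to 13.8 and from 9.95 to 18.6 TPM.

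Coordinates below are those of the coding sequence on the reference genome R64 of strain S288C, where each of the 34 genes has 1 coding exon. In the enzymes with near-identical copies, reads can be split between genes. On R64, 31-base words found once made up less than 90% of the coding sequence for 9 of the 34 genes. They were TDH1 (73.7%), TDH2 (49.4%), TDH3 (56.8%), ENO1 and ENO2 (61.2% each), ADH1 and ADH2 (81.6% each), and ALD2 and ALD3 (50.5% each). The coding sequences of TDH2 and TDH3 were 95.8% identical, and those of ENO1 and ENO2 94.8%. A differing and a shared stretch of each set are shown, since reads can be told apart only where copies differ. The first is the stretch of 30 coding bases with the most differences, at bases 47 to 76 of the 3 TDH genes and 337 to 366 of the ENO genes, with positions that differ between copies in capitals.

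TDH1, chromosome X: tCTtgagaTtGgctttgCAAagaAAAGacA

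TDH2, chromosome X: tTAtgagaAtTgctttgCAAagaAAGAacG

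TDH3, chromosome VII: tCAtgagaAtTgctttgTCTagaCCAAacG

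ENO1, chromosome VII: ggtgtTtcTTtggcTgctTcCagagcTgcC

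ENO2, chromosome VIII: ggtgtCtcCAtggcCgctGcTagagcCgcT

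The TDH stretch differed at 12 positions and the ENO stretch at 8. By contrast, coding bases 11 to 40 were the same in all 3 TDH genes, and coding bases 1 to 30 were the same in both ENO genes.

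TDH1, TDH2 and TDH3, shared: ttgctattaacggtttcggtagaatcggta

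ENO1 and ENO2, shared: atggctgtctctaaagtttacgctagatcc

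A read that lies within such a stretch cannot be assigned to a copy. How the counting treated these reads is not given in the sources used here, and values of these 9 genes are uncertain to that extent.

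The enzymes were among the most abundant transcripts. Together they took 12.0% of the TPM in byMM1827, against 9.30% in byMM1777, and 12.1% in byMM1832, against 11.9% in byMM1736. From 11 to 13 of them were among the top 50 genes of each library. TDH3 (YGR192C), the main glyceraldehyde-3-phosphate dehydrogenase, was the first gene of byMM1827, byMM1832 and byMM1736 and the second of byMM1777, with 25784 TPM in byMM1827, 18698 in byMM1777, 23829 in byMM1832 and 24403 in byMM1736. Minor isozymes were far lower, such as ADH2 (YMR303C), the ethanol-oxidising alcohol dehydrogenase repressed by glucose, with from 42.3 to 52.8 TPM, and PYK2 (YOR347C), the minor pyruvate kinase, with from 97.7 to 111 TPM. The lowest single value was that of ACS1 in byMM1832, at 16.7 TPM.

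**Figure D1:**
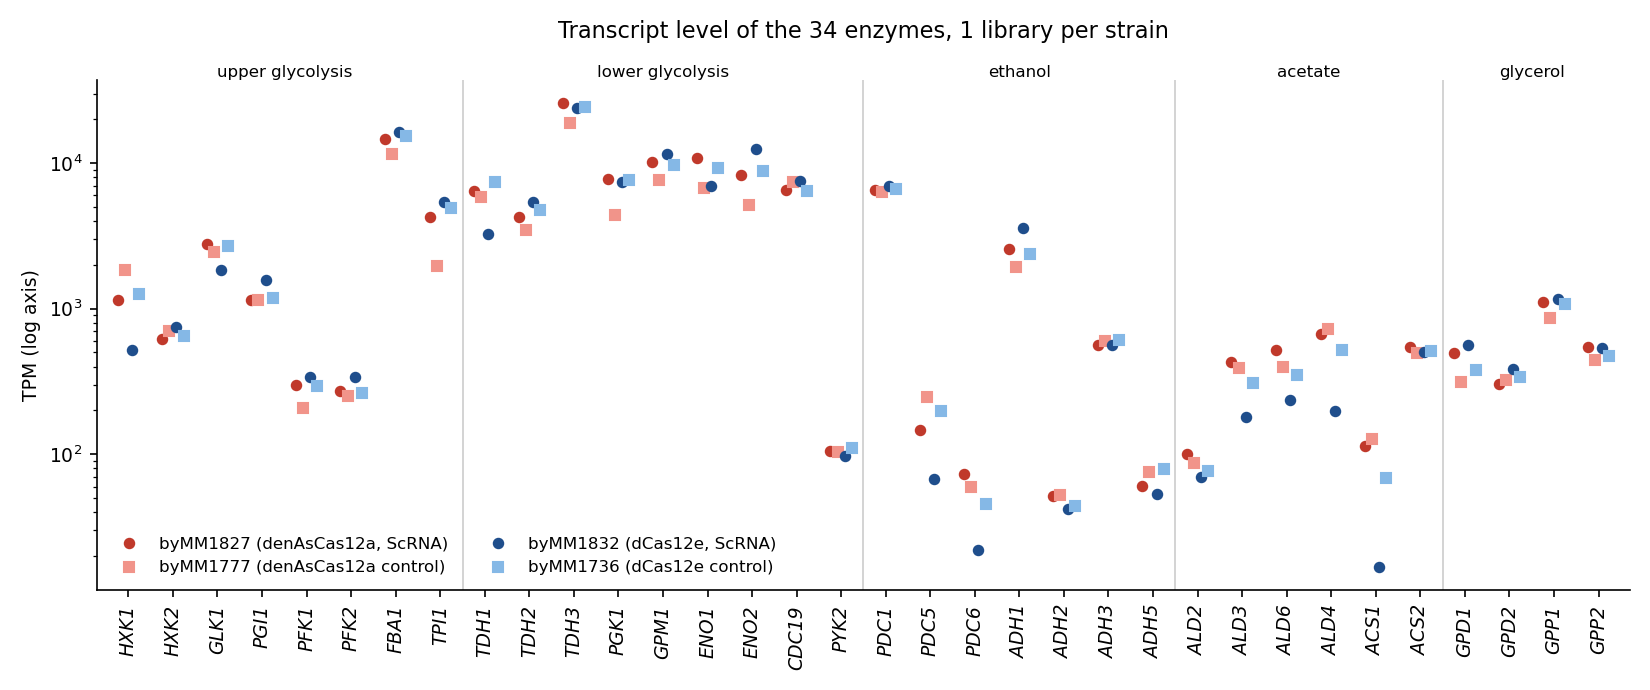
TPM of the 34 enzymes (log axis) in the 4 libraries, 1 point per library, with circles for the strains with ScRNAs and squares for their controls. The byMM1777 library lies below the other 3 for 17 of the 34 enzymes and byMM1832 for 13, a count that was not made over all genes. The byMM1832 library stands apart at ACS1, with 16.7 TPM, and at ALD4, with 199 TPM.

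The first comparison asked how the enzymes differed between byMM1827 and byMM1777. Of the 34, 24 were higher and 10 lower in byMM1827, against 1704 higher and 4306 lower of all 6010 genes. The median log2 ratio of the 34 was 0.16, against -0.16 over all genes. At least 1.5-fold differences were found for 5 enzymes higher, where 2.38% of all genes passed, and for 2 lower, where 5.71% passed. The 5 were TPI1, PGK1, ENO1, ENO2 and GPD1, and the 2 were HXK1 and PDC5. With TMM factors in place of the TPM scaling, the median of all genes shifted by 0.16 on the log2 scale and HXK1 no longer passed, and with median-ratio factors neither HXK1 nor PDC5 did. PFK1 and TDH3 passed as higher in their place, with ratios of 1.60 and 1.54 under TMM factors, which made 7 enzymes higher under either scaling. How many of all genes passed under these factors was not counted, and the 2.38% above belongs to the TPM scaling. Relative to ACT1, ENO1, ENO2 and GPD1 did not pass, and the median log2 ratio of the 34 was -0.055. At 2-fold only TPI1 remained, with a background of 0.765% of genes higher and 0.632% lower.

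The second comparison asked the same of byMM1832 and byMM1736. Here 16 enzymes were higher and 18 lower in byMM1832, against 3247 higher and 2762 lower of 6009 genes. The median log2 ratio of the enzymes was -0.03, against 0.03 over all genes. Only ADH1 was at least 1.5-fold higher, with a background of 4.48%, and 7 enzymes were at least 1.5-fold lower, with a background of 6.97%. They were HXK1, TDH1, PDC5, PDC6, ALD3, ALD4 and ACS1. Of these, 6 were also at least 2-fold lower, where 2.65% of all genes passed, ALD3 being the exception, and none was 2-fold higher, where 0.849% passed.

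The control libraries differed as well. In byMM1736 over byMM1777, 3 enzymes (TPI1, PGK1 and ENO2) were at least 1.5-fold higher, with a background of 2.51%, and 1 (ACS1) was lower, with a background of 11%. The median log2 ratio of the 34 was 0.08, against -0.22 over all genes. This comparison shares byMM1777 with the first and byMM1736 with the second, so that their values are not independent.

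**Figure D2:**
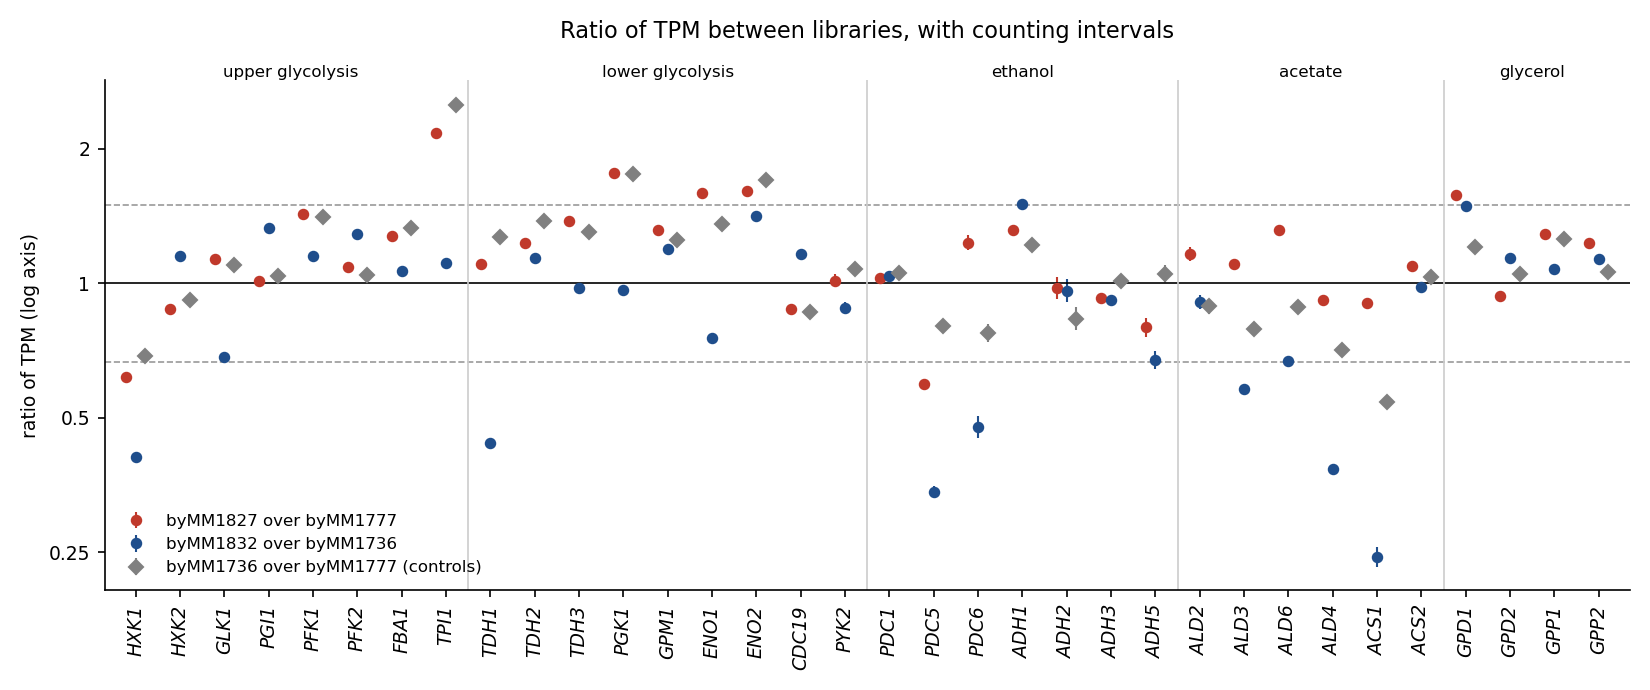
Ratio of TPM (log axis) of byMM1827 over byMM1777, byMM1832 over byMM1736 and byMM1736 over byMM1777 for the 34 enzymes, with 95% counting intervals, most of them smaller than the points, and dashed lines at 1.5-fold in either direction. TPI1 is highest in the first comparison and between the controls, at 2.17 and 2.51, and ACS1 is lowest in the second, at 0.244.

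Of the 8 enzymes of upper glycolysis, HXK1 and TPI1 alone were past 1.5-fold in any of the 3 comparisons. The summed level of the 8 was 25067 TPM in byMM1827 and 19985 in byMM1777, and 27002 in byMM1832 and 26454 in byMM1736. The hexokinase isozyme of low glucose and other carbon sources, HXK1 (YFR053C, chrVI:253592-255049, minus strand), had 1139 TPM in byMM1827 and 1840 in byMM1777, and 519 in byMM1832 and 1267 in byMM1736. HXK1 was thus lower in both strains with ScRNAs than in either control, as were PDC5, ADH3 and ADH5. The share of all genes for which this holds was not counted. The ratio of HXK1 was 0.619 (0.614 to 0.625) for byMM1827 over byMM1777 and 0.410 (0.405 to 0.415) for byMM1832 over byMM1736. HXK2 (YGL253W), the hexokinase that predominates on glucose and also serves glucose repression, had from 616 to 742 TPM, highest in byMM1832. GLK1 (YCL040W), the glucokinase, had 2766 TPM in byMM1827 and 2440 in byMM1777, and 1836 in byMM1832 and 2688 in byMM1736, a ratio of 0.683 (0.678 to 0.688) in the dCas12e pair that stayed short of 1.5-fold.

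Triose-phosphate isomerase, which interconverts the products of aldolase, showed the widest gap of the denAsCas12a pair. TPI1 (YDR050C, chrIV:555726-556472, minus strand) had 4233 TPM in byMM1827 and 1952 in byMM1777, and 5438 in byMM1832 and 4898 in byMM1736. The byMM1777 library alone was low, and the other 3 had 4233 TPM or more. The ratio of byMM1827 to byMM1777 was 2.17 (2.15 to 2.19), that of byMM1832 to byMM1736 was 1.11 (1.10 to 1.12), and that of byMM1736 to byMM1777 was 2.51 (2.49 to 2.53). The remaining enzymes of this block were less than 1.5-fold apart in all 3 comparisons. PGI1 (YBR196C), the phosphoglucose isomerase, was 1.33-fold higher in byMM1832 than in byMM1736 and had a ratio of 1.02 for byMM1827 over byMM1777. PFK1 (YGR240C) and PFK2 (YMR205C), the subunits of phosphofructokinase, had ratios of 1.43 and 1.09 in the denAsCas12a pair and of 1.15 and 1.29 in the dCas12e pair. FBA1 (YKL060C), the aldolase, had 14587 TPM in byMM1827 and 11452 in byMM1777, and 16217 in byMM1832 and 15219 in byMM1736.

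In lower glycolysis, 8 of 9 enzymes were higher in byMM1827 than in byMM1777, where 1704 of 6010 genes were. The median ratio of the 9 was 1.32. For byMM1736 over byMM1777 it was 1.31, with 8 of the 9 higher. Their summed level was 80050 TPM in byMM1827 and 59498 in byMM1777, but 78406 in byMM1832 and 78368 in byMM1736. PGK1 (YCR012W, chrIII:137746-138996, plus strand), the phosphoglycerate kinase and the first ATP-yielding step, had 7718 TPM in byMM1827 and 4371 in byMM1777, and 7436 in byMM1832 and 7692 in byMM1736. The denAsCas12a pair gave a ratio of 1.77 (1.76 to 1.77), the dCas12e pair one of 0.967 (0.963 to 0.971). As with TPI1, the byMM1777 library was low and the other 3 were alike. GPM1 (YKL152C), the phosphoglycerate mutase, had ratios of 1.32 and 1.195 in the denAsCas12a and dCas12e pairs. CDC19 (YAL038W), the main pyruvate kinase, was the one enzyme of the block that was lower in byMM1827, with 6519 TPM, against 7448 in byMM1777, and it was higher in byMM1832, with 7490, against 6426 in byMM1736.

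The enolases, which form phosphoenolpyruvate, went opposite ways in the dCas12e pair and not in the denAsCas12a pair. ENO1 (YGR254W, chrVII:1000927-1002240, plus strand), the copy that is less dependent on glucose, had 10794 TPM in byMM1827 and 6771 in byMM1777, and 6916 in byMM1832 and 9184 in byMM1736. ENO2 (YHR174W, chrVIII:451327-452640, plus strand), the glucose-induced copy, had 8289 TPM in byMM1827 and 5149 in byMM1777, and 12479 in byMM1832 and 8797 in byMM1736. In byMM1827 the ratios to byMM1777 were alike, at 1.59 for ENO1 and 1.61 for ENO2. In byMM1832 the ratios to byMM1736 were 0.753 (0.7502 to 0.756) for ENO1 and 1.42 (1.41 to 1.42) for ENO2. ENO2 had 1.80 times the level of ENO1 in byMM1832, against 0.958 times in byMM1736. In byMM1827 it had 0.768 times the level of ENO1 and in byMM1777 0.760 times.

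Of the 3 glyceraldehyde-3-phosphate dehydrogenases, TDH1 alone was past 1.5-fold, and in the dCas12e pair only. TDH1 (YJL052W, chrX:338271-339269, plus strand), the copy made mainly in stationary phase and under stress, had 6430 TPM in byMM1827 and 5815 in byMM1777, and 3237 in byMM1832 and 7374 in byMM1736. It was low in byMM1832 alone. The ratio was 0.439 (0.436 to 0.442) in the dCas12e pair and 1.11 (1.10 to 1.11) in the denAsCas12a pair. TDH2 (YJR009C) had 4251 TPM in byMM1827 and 3448 in byMM1777, and 5414 in byMM1832 and 4754 in byMM1736. TDH3 had a ratio of 0.976 in the dCas12e pair and of 1.38 in the denAsCas12a pair.

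**Figure D3:**
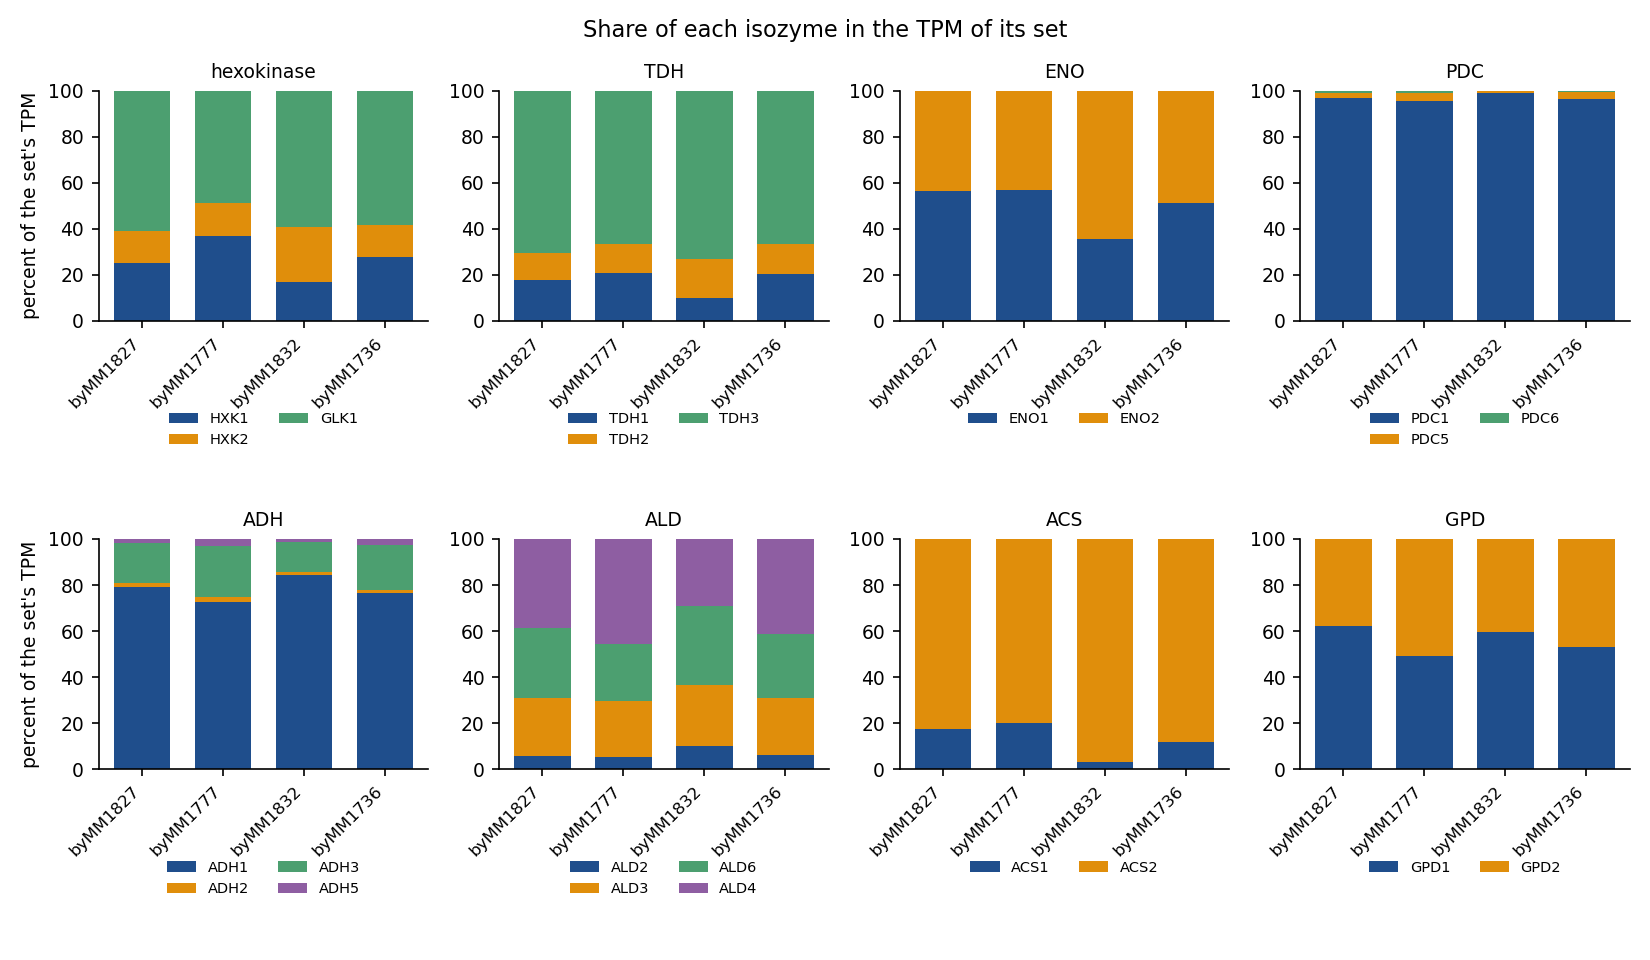
Share of each isozyme in the summed TPM of its set (percent, bars from 0 to 100) in byMM1827, byMM1777, byMM1832 and byMM1736 for 8 of the 11 sets. The bars of byMM1832 show the smallest shares of HXK1 (16.8%), TDH1 (9.97%), ENO1 (35.7%), ALD4 (29.1%) and ACS1 (3.21%) among the 4 libraries.

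Expressed as a share of its set, HXK1, TDH1, PDC5, PDC6, ALD4 and ACS1 were smallest in byMM1832, as was ENO1. The share of ALD3, also lower in byMM1832, was largest there, at 26.3%. It was 25.0% in byMM1827, 24.4% in byMM1777 and 24.7% in byMM1736. TDH1 made up 17.6% of the TDH transcripts in byMM1827 and 20.8% in byMM1777, and 9.97% in byMM1832 and 20.2% in byMM1736. ENO1 made up 56.6% of enolase in byMM1827 and 56.8% in byMM1777, and 35.7% in byMM1832 and 51.1% in byMM1736. HXK1 made up 25.2% of the glucose-phosphorylating enzymes in byMM1827 and 36.9% in byMM1777, and 16.8% in byMM1832 and 27.5% in byMM1736. In the dCas12e pair the TDH and enolase sets differed less than TDH1 and ENO1. The summed TDH level of byMM1832 was 0.889 times that of byMM1736, and the summed enolase level 1.08 times. This did not hold for every set. The summed ALD level was 0.545 times that of byMM1736, a larger difference than that of ALD3 (0.582). The glucose-phosphorylating set was at 0.673 times. In the denAsCas12a pair the enolase set had a ratio of 1.60, like both its copies. The shares in the TDH, ENO, ADH and ALD sets carry the uncertainty of near-identical copies.

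Of the 7 ethanol enzymes, the abundant PDC1 hardly differed and the minor pyruvate decarboxylases did. PDC1 (YLR044C) had 6484 TPM in byMM1827 and 6302 in byMM1777, and 6926 in byMM1832 and 6664 in byMM1736. PDC5 (YLR134W, chrXII:410723-412414, plus strand), which is induced when thiamine is short or PDC1 is missing, had 147 TPM in byMM1827 and 246 in byMM1777, and 67.6 in byMM1832 and 198 in byMM1736. Like HXK1, ADH3 and ADH5, PDC5 was lower in both strains with ScRNAs than in either control, which was not counted over all genes. The ratio was 0.595 (0.582 to 0.609) for byMM1827 over byMM1777 and 0.342 (0.332 to 0.352) for byMM1832 over byMM1736. PDC6 (YGR087C, chrVII:651290-652981, minus strand), the least abundant isozyme, had 73.0 TPM in byMM1827 and 59.2 in byMM1777, and 21.8 in byMM1832 and 45.8 in byMM1736. Its ratio in the dCas12e pair was 0.477 (0.451 to 0.504), and in the denAsCas12a pair it was 1.23 (1.19 to 1.28).

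Alcohol dehydrogenase 1, which reduces acetaldehyde to ethanol, was the one enzyme past 1.5-fold higher in the dCas12e pair. ADH1 (YOL086C, chrXV:159548-160594, minus strand) had 2553 TPM in byMM1827 and 1942 in byMM1777, and 3567 in byMM1832 and 2373 in byMM1736. It was highest in byMM1832, with a ratio of 1.503 (1.49 to 1.51) whose interval spans the limit, and the ratio in the denAsCas12a pair was 1.31 (1.30 to 1.33). With TMM or median-ratio factors, or relative to ACT1, ADH1 did not pass 1.5-fold in either pair, while ADH5 and ALD6 passed as lower in the dCas12e pair, with ratios of 0.659 and 0.655 under TMM factors. ADH3 (YMR083W), the mitochondrial isozyme, was the steadiest of the 34, with from 558 to 608 TPM. ADH5 (YBR145W) had ratios of 0.798 and 0.675 in the denAsCas12a and dCas12e pairs. ADH2 had ratios of 0.977 (0.923 to 1.03) and 0.964 (0.909 to 1.02), differences not detectable at this depth.

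The acetate branch was the block with the largest difference in the dCas12e pair, with a median ratio of 0.625. All 6 enzymes were lower in byMM1832 than in byMM1736, where 2762 of 6009 genes were lower. In the denAsCas12a pair the median ratio was 1.10. For byMM1736 over byMM1777 it was 0.836, with 5 of the 6 lower, where 4596 of 6010 genes were. ACS1 (YAL054C, chrI:42881-45022, minus strand), the acetyl-CoA synthetase of growth on acetate and ethanol, had 114 TPM in byMM1827 and 126 in byMM1777, and 16.7 in byMM1832 and 68.6 in byMM1736. Its ratio of 0.244 (0.232 to 0.257) was the lowest of all 34 in the dCas12e pair, and the controls themselves differed, with a ratio of 0.543 (0.527 to 0.559). ACS2 (YLR153C), the isozyme needed on glucose, had from 497 to 544 TPM, and its ratio in the dCas12e pair was 0.984 (0.972 to 0.996). ACS1 made up 17.4% of the set in byMM1827 and 20.3% in byMM1777, and 3.21% in byMM1832 and 11.8% in byMM1736.

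The aldehyde dehydrogenases make acetate from acetaldehyde, in mitochondria by ALD4 and in the cytosol by ALD6. ALD4 (YOR374W, chrXV:1039840-1041399, plus strand) had 671 TPM in byMM1827 and 729 in byMM1777, and 199 in byMM1832 and 518 in byMM1736, with ratios of 0.920 (0.908 to 0.931) and 0.384 (0.377 to 0.391). ALD6 (YPL061W) had 523 TPM in byMM1827 and 396 in byMM1777, and 235 in byMM1832 and 350 in byMM1736. Its ratio of 0.671 (0.658 to 0.684) in the dCas12e pair lay just inside 1.5-fold, against 1.32 in the denAsCas12a pair. ALD3 (YMR169C, chrXIII:599352-600872, minus strand), a cytosolic isozyme induced by stress, had 432 TPM in byMM1827 and 391.9 in byMM1777, and 180 in byMM1832 and 310 in byMM1736. ALD3 lies beside its near copy ALD2 (YMR170C) on chromosome XIII, and ALD2 had a ratio of 0.910 in the dCas12e pair where ALD3 had 0.582.

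The 4 glycerol enzymes were all higher in byMM1832 than in byMM1736, where 3247 of 6009 genes were higher. In byMM1827, 3 of 4 were higher than in byMM1777, where 1704 of 6010 genes were. Between the controls, all 4 were higher in byMM1736 than in byMM1777, where 1414 of 6010 genes were. The median ratio of the 4 was 1.13 there and 1.14 in the dCas12e pair. GPD1 (YDL022W, chrIV:411825-413000, plus strand), the glycerol-3-phosphate dehydrogenase induced by osmotic stress, had 495 TPM in byMM1827 and 314 in byMM1777, and 567 in byMM1832 and 380 in byMM1736. It was higher in both strains with ScRNAs than in either control, as were PFK1, PFK2, GPM1, ADH1, GPP1 and GPP2. The share of all genes for which this holds was not counted. The ratios of GPD1 were 1.58 (1.55 to 1.61) and 1.49 (1.47 to 1.52), the second just short of the limit. GPD2 (YOL059W), the isozyme that serves redox balance, had ratios of 0.937 and 1.14. GPD1 made up 62.1% of the set in byMM1827 and 49.4% in byMM1777, and 59.6% in byMM1832 and 52.9% in byMM1736. GPP1 (YIL053W) and GPP2 (YER062C), the phosphatases that release glycerol, were less than 1.5-fold apart in all 3 comparisons.

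The calls changed with the control library in both strains, and for byMM1832 those made against its own control were kept. Set against byMM1736 in place of byMM1777, none of the 7 enzymes past 1.5-fold in byMM1827 stayed past it, where 3.26% of all genes were past it in either direction. TPI1 then had a ratio of 0.864, PGK1 of 1.003 and ENO2 of 0.942, and HXK1 and PDC5 had 0.899 and 0.742. Other enzymes passed in that comparison, namely PDC6 with a ratio of 1.59 and ACS1 with 1.67. For byMM1832, all 8 enzymes past 1.5-fold stayed past it against byMM1777, where 26.7% of all genes were past it, with ratios of 0.132 for ACS1, 0.273 for ALD4, 0.557 for TDH1 and 1.84 for ADH1. A further 7 enzymes passed only against byMM1777: TPI1 with a ratio of 2.79, ENO2 with 2.42, GPD1 with 1.81, PGK1 with 1.70, PFK1 with 1.62, TDH2 with 1.57 and ALD6 with 0.593. These comparisons cross the Cas proteins, and the strains differ in the reporter plasmid as well.

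**Figure D4:**
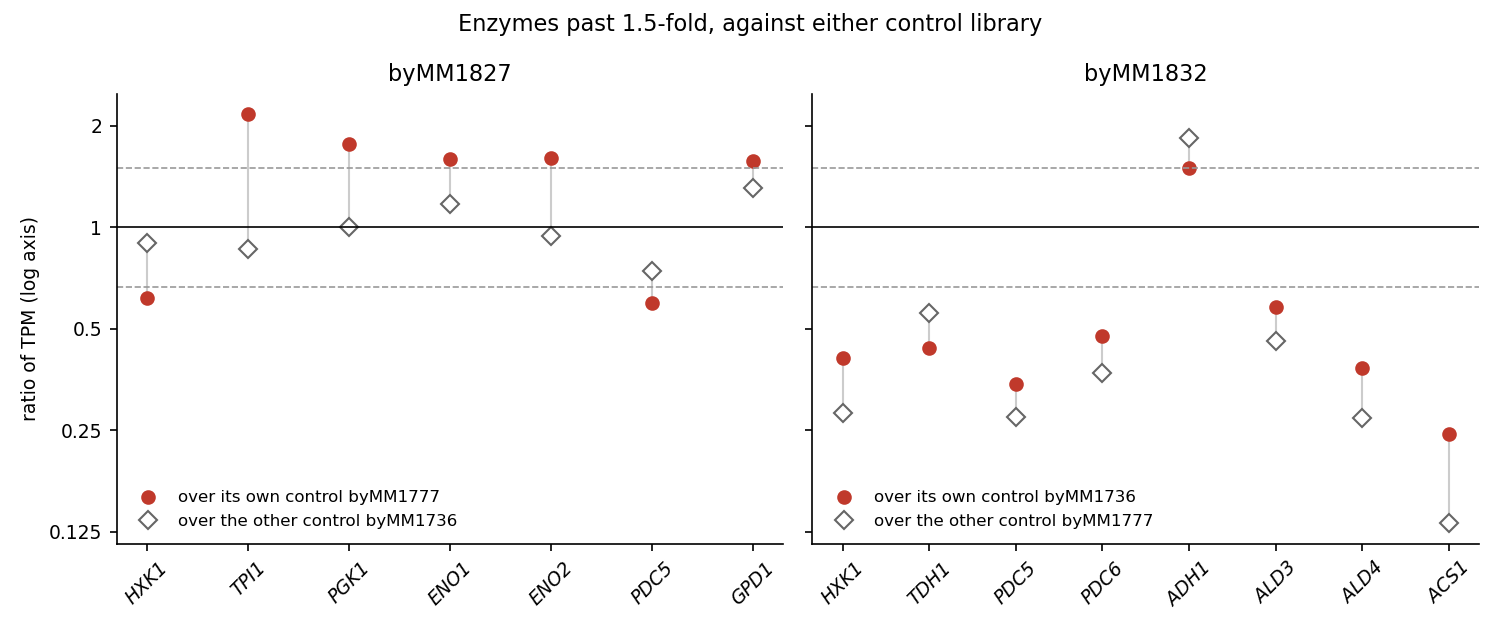
Ratio of TPM (log axis) for the enzymes at least 1.5-fold apart from their own control, in byMM1827 (left) and byMM1832 (right), over their own control (filled circles) and over the control of the other pair (open diamonds), with dashed lines at 1.5-fold. On the left all 7 open diamonds lie within the dashed lines, and on the right all 8 lie outside, from 0.132 for ACS1 to 1.84 for ADH1.

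The one test the design allows sets the 2 libraries with ScRNAs against the 2 without, with the Cas protein as a term and 1 residual degree of freedom. By edgeR's quasi-likelihood test with Benjamini-Hochberg adjustment, 0 of the 34 enzymes and 0% of 6020 genes had an adjusted p under 0.05. At an unadjusted p under 0.05 there were 5 of the 34, where 8.44% of all genes passed. They were PDC5, HXK1, GPD1, ADH1 and ENO2. PDC5 had a log2 fold change of -1.09 by edgeR, with an adjusted p of 0.478, and was lower in 2 of 2 pairs. HXK1 had a log2 fold change of -0.93 by edgeR, with an adjusted p of 0.518, and was lower in 2 of 2 pairs. By DESeq2's Wald test these same 2 were called, with adjusted p of 0.00694 for PDC5 and 0.0203 for HXK1, where 0.57% of 5963 genes were called lower and 0.201% higher. The residual holds the difference between the pairs, which differ in Cas protein, ScRNA, target and reporter plasmid. The sources do not say how the cultures behind the libraries were handled in parallel. These p-values rest only on the spread between the 4 libraries, with the error of each gene drawn largely from that of all genes. In edgeR the median prior was 5.86 degrees of freedom, against 1 residual.

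Other genes of the same pathways were counted in the same way, and whether they differ from the 34 was not tested. Of 28 further enzymes and regulators, 27 had a ratio, and ADH7 had 0 counts in each library. In the denAsCas12a pair 0 of 27 were at least 1.5-fold higher, against 2.38% of all genes, and 1 lower, against 5.71%. It was MIG1, the glucose repressor, with 75.8 TPM in byMM1827 and 127 in byMM1777. MIG1 had 78.7 TPM in byMM1736, a ratio of 0.619 between the controls. In the dCas12e pair 1 was higher, against 4.48% of all genes, namely PFK26, which makes the activator of phosphofructokinase, with 28.3 TPM in byMM1832 and 15.3 in byMM1736. The 4 that were lower, against 6.97% of all genes, were ADH4, the zinc-repressed alcohol dehydrogenase, GCY1, a glycerol dehydrogenase, CAT8, the activator of genes for growth on ethanol, and MIG1, with ratios of 0.550, 0.538, 0.595 and 0.614. ADH4 was high in byMM1736 alone, with 289 TPM, against 159 in byMM1832, 163 in byMM1777 and 136 in byMM1827. Its ratio between the controls was 1.76. GCR1, which encodes the main activator of glycolytic genes, had 13.9 TPM in byMM1827 and 18.3 in byMM1777, and 13.8 in byMM1832 and 14.0 in byMM1736.

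Lists of genes known to answer to glucose, stress, thiamine and zinc were counted as well. They were chosen by textbook role with earlier results of these data known, so that their counts only describe. Beside them stand 6.97% of all genes at least 1.5-fold lower in the dCas12e pair and 5.71% in the denAsCas12a pair. Of 12 glucose-repressed genes, which serve gluconeogenesis, the glyoxylate cycle, fatty acid oxidation and the use of lactate and sucrose, 7 were at least 1.5-fold lower in byMM1832 than in byMM1736 and 0 in byMM1827 than in byMM1777. Between the controls, 4 of the 12 were at least 1.5-fold lower in byMM1736 than in byMM1777, where 11% of all genes were. The summed level of the 12 was 919 TPM in byMM1827 and 983 in byMM1777, and 417 in byMM1832 and 779 in byMM1736. Among them MLS1, the malate synthase, had 20.2 TPM in byMM1832, against 61.6 in byMM1736. Their part in the values of ACS1, ALD4 and HXK1 was not tested.

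Of 14 stress-induced genes, 6 were at least 1.5-fold lower in the dCas12e pair and 0 higher. In the denAsCas12a pair 0 were lower and 1 higher. Between the controls, 3 were lower in byMM1736 than in byMM1777 and 1 was higher. HSP26, a small heat shock protein, had 4234 TPM in byMM1827 and 3052 in byMM1777, and 740 in byMM1832 and 2867 in byMM1736. The summed level of the 14 was 17858 TPM in byMM1827 and 16196 in byMM1777, and 10778 in byMM1832 and 16002 in byMM1736. It was thus lowest in byMM1832, where TDH1 and ALD3 were lowest too, and its part in their values was not tested.

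Of 6 thiamine genes, 5 were at least 1.5-fold lower in the dCas12e pair and 0 in the denAsCas12a pair. Between the controls, 0 of them were 1.5-fold apart in either direction. THI4, an enzyme of thiamine synthesis, had 99.5 TPM in byMM1832, against 463 in byMM1736. The summed level of the 6 was 983 TPM in byMM1827 and 1057 in byMM1777, and 493 in byMM1832 and 1253 in byMM1736. These values stand beside those of PDC5, and a link was not tested. Of 5 zinc-regulated genes, 4 were at least 1.5-fold lower in each pair. Between the controls, 2 of the 5 were at least 2-fold higher in byMM1736 than in byMM1777. ZRT1, the zinc importer, had 90.3 TPM in byMM1827 and 299 in byMM1777, and 44.7 in byMM1832 and 651 in byMM1736. In bulk RNA, a change in every cell and a change in the part of the culture that expresses a gene cannot be told apart.

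Motifs of the known regulators were searched on both strands in front of the 34 genes, from 250 bases before to 50 bases after the start codon of R64. AGGGG, the stress response element, was in this window for 11 of the 34, against 21.6% of 5976 windows of all genes. It was there for 3 of the 7 enzymes that were lower in byMM1832. In a window from 700 bases before the start codon, chosen after seeing the data, it was found for 22 of the 34, against 46.6% of 5974 windows, and for 6 of the 7, PDC6 being without it. The 6 matches nearest to the start codon are shown, because these genes were lower together in byMM1832. AGGGG or its reverse complement CCCCT is in capitals, read 5′ to 3′ on the strand of the gene. The genome is that of S288C and may differ from CEN.PK2-1C.

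HXK1, chrVI:255369-255398, minus strand, 332 bases before the start codon: catttttttttaAGGGGttgatgaaaagaa

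TDH1, chrX:338030-338059, plus strand, 224 bases before: atagtctgaagaAGGGGgggaggagcatgt

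PDC5, chrXII:410341-410370, plus strand, 365 bases before: atgcgttttgcgCCCCTtggaaaaaaattg

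ALD4, chrXV:1039636-1039665, plus strand, 187 bases before: agatggaaaatgAGGGGcgggtgtaggtaa

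ALD3, chrXIII:601094-601123, minus strand, 234 bases before: ttgttgatcagcCCCCTtcttaagctgatt

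ACS1, chrI:45346-45375, minus strand, 336 bases before: agatgaccccccCCCCTcaaaaggcactca

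A match is a string of letters and not a known site. It was also in front of members that did not differ in this way. In the longer window ADH1, the one enzyme past 1.5-fold higher in byMM1832, held it. So did 15 of the 26 enzymes that were past 1.5-fold in neither direction in that pair. Of the 26, TPI1, PGK1, ENO1 and GPD1 held it, and ENO2 did not. CTTCC, the Gcr1 motif, was found in the shorter window for 16 of the 34, against 46.5% of all windows, and in the longer window for 28, against 80.6%. Of the 5 enzymes higher in byMM1827 all 5 held it in the longer window, as most genes do. For the 3 that also differed between the controls, the matches nearest to the start codon are shown. CTTCC or its reverse complement GGAAG is in capitals.

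TPI1, chrIV:556830-556859, minus strand, 370 bases before the start codon: aagacttttcagCTTCCtctattgatgtta

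PGK1, chrIII:137696-137725, plus strand, 33 bases before: acagatcatcaaGGAAGtaattatctactt

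ENO2, chrVIII:451221-451250, plus strand, 89 bases before: tttgtatcttttCTTCCcttgtctcaatct

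CACCCA, the core of the Rap1 site, was found for 3 of the 34 in the shorter window, against 7.90% of all windows, and for 12 in the longer one, against 22.6%.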

How the data were processed

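Read counts and TPM were analysed for 4 libraries of *S. cerevisiae* RNA. The authors deposited whole-number counts of reads per gene, without normalization, and TPM, in which the authors divided counts by gene length and scaled each library. Submitters' processing notes name HISAT2, StringTie, Trimmomatic, bedtools, FastQC and DESeq2; the genome build is not given in the sources used here. The lengths implied by the tables matched R64 coding lengths within 2% for 34 of 34 enzymes and 99.9% of 5691 genes. Deposited tables of the authors' fold changes, p-values and q-values were not used, and neither were 2 columns of other strains in each table.

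Strains were taken from the titles. The TPM ratio within each pair, and between controls, was given a 95% Clopper-Pearson interval from the 2 counts, for counting error only. Genes at least 1.5-fold apart were counted over those that averaged 10 counts or more, and 3 counts served as floor. The ScRNA effect was tested on counts in edgeR 4.0.16 (filterByExpr, TMM, quasi-likelihood), with DESeq2 1.42.0 as alternative, in R 4.3.3. Other steps used Python 3.11.15 (scipy 1.17.1, biopython 1.88, pandas 2.3.3, numpy 2.4.6, matplotlib 3.10.9), and the scripts were tested on simulated data. Alternatives were ACT1 as reference, TMM and median-ratio factors, counts scaled to the library total, a pseudocount (1 or 0.1 TPM), other filters, thinning, the other control, 2-fold, intervals wholly past 1.5-fold, and the 9 near-identical genes left out. All 34 enzymes are named by identifier; those past 1.5-fold have their TPM in each library. The members and lists were chosen with earlier results of these data known, and the lists by textbook role.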

Additional observations from a re-analysis of the deposited data

Results flagged for a closer look

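For 5 of the 34 enzymes the ratio was past 1.5-fold in 1 pair and lay on the other side of 1 in the other, with both counting intervals off 1, where 227 of 6009 genes (3.78%) met the same rule. The log2 ratio of byMM1832 over byMM1736 minus that of byMM1827 over byMM1777 was -1.33 for TDH1, -0.87 for PGK1, -1.08 for ENO1, -1.37 for PDC6 and -0.92 for ALD3. With 1 library per strain these differences were not tested. For PGK1 the ratio in the dCas12e pair, 0.967, was close to 1. No group had 4 or more libraries, so that no library could be examined for standing apart from its group.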

How the results depend on the processing

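Pseudocounts and thinning kept every one of the 7 enzymes called in byMM1827 and the 8 called in byMM1832. Thinning to the smallest library put 2 enzymes above 1.5-fold in byMM1832. For byMM1827 over byMM1777, the number of enzymes higher was 2 relative to ACT1, 2 with the control of the other pair, 1 at 2-fold and 3 without the near-identical genes; the number lower was 1 with TMM factors, 0 with median-ratio factors, 0 with the other control and 0 at 2-fold. HXK1 was lost with TMM factors, HXK1 and PDC5 with median-ratio factors, and ENO1, ENO2 and GPD1 relative to ACT1. The median log2 ratio of the 34 was 0.33 with TMM and 0.33 with median-ratio factors, -0.055 relative to ACT1 and 0.031 with the other control, while the median of all genes shifted by 0.16, 0.16, -0.22 and 0.22 on the log2 scale. With the other control, the log2 ratio turned to -0.21 for TPI1 and -0.086 for ENO2. For byMM1832 over byMM1736, the number higher was 7 with the other control and 0 with ACT1 as reference, TMM factors, median-ratio factors, counts scaled to the library total, 2-fold, an interval wholly past 1.5-fold, or without the near-identical genes, of which ADH1 is one. For byMM1736 over byMM1777, the number higher was 8 with TMM factors, 8 with median-ratio factors and 1 at 2-fold, and the number lower was 3 relative to ACT1 and 0 at 2-fold. The median log2 ratio was 0.29, 0.30 and -0.13 with TMM factors, median-ratio factors and ACT1, while that of all genes shifted by 0.22, 0.22 and -0.20. How many of all genes were past 1.5-fold under these settings was not counted in any comparison. The counts of enzymes under them therefore have no background to be read against. The summed share of the 34 was 14.2% in byMM1827, 11.2% in byMM1777, 14.3% in byMM1832 and 14.3% in byMM1736 as a share of counts, and without the near-identical genes 6.13% of the TPM in byMM1827, 5.06% in byMM1777, 6.48% in byMM1832 and 6.17% in byMM1736. DESeq2 called 2 enzymes lower, where edgeR called 0 in each of its settings. The Cas protein term of the model compares within each Cas pair; without it edgeR called 0 enzymes as well. No paired analysis by replicate number was possible because each strain had 1 library and the labels give no such numbers. Leaving out a library was not run, since it leaves the model no residual degree of freedom. Depth limits only ADH2 and PYK2, whose intervals reached 1 in a pair; the lack of replicate libraries limits every ratio.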
